A study of Mus musculus with 24 samples.

Results

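The 57 protein-coding genes whose symbols place them in the UDP-glucuronosyltransferases (Ugt, 20 genes), cytosolic sulfotransferases (Sult, 15 genes) or glutathione S-transferases (Gst, 22 genes) were followed in liver and kidney of C57BL/6 mice. The rule uses only symbol and transcript type and takes them from the 33272 genes of the deposited table. Each organ had 4 arms of 3 libraries. The combination arm received 0.2 mg/kg CBLB502, which is derived from bacterial flagellin and activates TLR5, 30 min before 20 mg/kg cisplatin into the peritoneum. The cisplatin arm received cisplatin alone at that dose, the CBLB502 arm CBLB502 alone, and the control arm no treatment. Tissue of the treated arms was taken at 72 h, and no time is given for the controls. The labels give neither sex nor age, and nothing shows that the libraries of an arm came from separate animals. The p-values therefore refer to library-to-library spread only, and part of that spread could be technical.

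All 3 families make foreign and endogenous compounds more water-soluble by attaching a polar group. Ugt enzymes sit in the endoplasmic reticulum and transfer glucuronic acid from UDP-glucuronic acid to bilirubin, steroids, bile acids, phenols and drugs. Sult enzymes transfer sulfate from the donor PAPS to hormones, bile acids, catecholamines and phenols, and Gst enzymes join glutathione to electrophiles. Hepatocytes and the proximal tubule of the kidney are main sites of all 3 reactions.

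The Ugt1a genes need care before any value is read. They form a cluster on mouse chromosome 1 (GRCm38, plus strand). In the transcript used for each of the 9 genes, the first coding exon is its own and all 9 share the exons behind it. The shared part is 738 coding bases, between 45.9% and 46.5% of each coding sequence, and it was the same in all 9 genes. A read within it cannot be assigned to 1 gene. The splice junctions of 6 genes are shown because the letters left of the junction differ between most of the genes. Each line gives the last 30 bases of the gene's own exon in lower case and the first 30 bases of the shared exon, chr1:88215044-88215175, in capitals (GENCODE vM21 transcripts, 5′ to 3′).
Ugt1a10: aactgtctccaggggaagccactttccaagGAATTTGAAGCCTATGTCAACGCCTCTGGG
Ugt1a7c: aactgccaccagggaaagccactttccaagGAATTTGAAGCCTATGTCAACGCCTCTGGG
Ugt1a6a: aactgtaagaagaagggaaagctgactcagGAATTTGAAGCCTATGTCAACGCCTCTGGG
Ugt1a5: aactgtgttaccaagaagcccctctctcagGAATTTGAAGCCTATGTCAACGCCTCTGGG
Ugt1a2: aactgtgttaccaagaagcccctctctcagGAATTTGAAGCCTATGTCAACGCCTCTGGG
Ugt1a1: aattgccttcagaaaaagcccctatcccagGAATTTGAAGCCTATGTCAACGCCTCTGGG
The 9 genes have 7 distinct own ends. Ugt1a5 and Ugt1a2 end in the same 30 bases, and Ugt1a6b ends like Ugt1a6a. Over all members, 36 of 57 share at least 1 stretch of 50 bases with another gene's transcript and 21 share none. The share of such stretches was 89.7% in Gsta1, 64.2% in Gsta2, 62.3% in Gstp1 and 72.6% in Gstp2, but 0% in Gstm5, Gstp3, Sult1d1, Sult1e1, Sult2a7 and Sult2a8. For Ugt1a6a the share was 100% and for Ugt1a6b 80.7%, all of them also in transcripts annotated to Ugt1a7c. Counts of the shared-sequence genes are uncertain where reads could be split between copies. Gstm5 and Sult1a1 each overlap a gene on the other strand (4933431E20Rik and Sgf29). So do Gsta3 (Gm28836), Gstz1 (Pomt2 and Gm6566) and Sult2b1 (Lmtk3 and Gm31597). Gstt3 overlaps Gm20441 on its own strand and shares 26% of its stretches with it. The strand setting of the counting is not given in the sources used here.

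The control libraries differed from the treated ones in composition in both organs. Mitochondrial genes took 6.32% to 14.2% of counts in treated kidneys, against 60.7% to 69.0% in kidney controls, and 2.57% to 7.11% in treated livers, against 69.3% to 72.2% in liver controls. A further 19.8% to 21.9% of control counts lay on 7 pseudogene copies of mitochondrial sequence. With M for 1000000 counts, total depth was 54.1 M to 77.1 M per treated kidney and 52.9 M to 55.2 M per kidney control, and 53.5 M to 77.5 M per treated liver and 40.6 M to 42.6 M per liver control. Outside these mitochondrial genes and copies, treated kidneys held 44.0 M to 68.8 M counts and kidney controls 5.05 M to 10.1 M, and treated livers held 48.6 M to 74.5 M and liver controls 2.82 M to 4.65 M. The arm and this composition cannot be told apart in any comparison with control, so the comparisons among treated arms come first. The CBLB502 arm also differed from both cisplatin-containing arms, to a smaller degree. CBLB502 kidneys held 54.1 M to 58.25 M counts, 13.3% to 14.2% mitochondrial, against 70.1 M to 77.1 M and 6.32% to 10.3%. CBLB502 livers held 53.5 M to 57.75 M, 6.73% to 7.11% mitochondrial, against 71.2 M to 77.5 M and 2.57% to 5.70%. This difference cannot be told apart from the arm either. In addition, liver cisplatin library 3 and kidney cisplatin library 6 stood apart from the other 2 libraries of their arms, and results that rest on them are given with and without them. The labelled organs carried their markers. In kidney, 10 proximal tubule genes summed to 1596 to 7273 CPM (counts scaled to 1000000 per library), and in liver to 8.44 to 64.0 CPM. Alb, Apoa1 and 6 other hepatocyte genes summed to 47050 to 83380 CPM in treated livers, 13700 to 27450 CPM in liver controls and 280 to 723 CPM in kidney. In bulk tissue, fewer cells of a type and less RNA per cell cannot be told apart.

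Levels between genes are compared per length, as scaled counts per kilobase of exon (written FPKM here and computed from the counts), averaged over the 12 libraries of an organ. In kidney the highest Ugt members were Ugt2b38 (142.5 FPKM), Ugt3a2 (141.4 FPKM) and Ugt1a7c (55.3 FPKM). Mouse Ugt2b enzymes glucuronidate steroids, and the human enzyme of the same name as Ugt3a2 uses sugars other than glucuronic acid. Sult1d1, a sulfotransferase of catecholamines in mice, led the kidney sulfotransferases at 319.5 FPKM, ahead of Sult1a1 (20.5 FPKM) and Sult1c2 (17.0 FPKM), both phenol sulfotransferases. Gstm1 of class mu (332.7 FPKM), Gsta2 of class alpha (227.1 FPKM) and Gstm5 of class mu (157.3 FPKM) led the kidney Gst genes. In liver, the leading members were Ugt2b5 (178 FPKM), Ugt2b36 (139.2 FPKM) and Ugt1a1, the bilirubin enzyme (83.4 FPKM). Liver sulfotransferases were led by Sult1a1 (211.5 FPKM), Sult2a8, a bile acid sulfotransferase of mouse liver (70.1 FPKM), and Sult1d1 (69.2 FPKM), and the Gst genes by Gstp1 of class pi (605.7 FPKM), Gstm1 (398.8 FPKM) and Gsta3 of class alpha (169.3 FPKM). These orders are over all arms, and the values below show which of them differ by arm.

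Members with enough counts for testing numbered 49 in kidney and 48 in liver. Sult2a1, Sult2a3, Sult2a5, Sult3a1, Ugt1a8 and Ugt2a1 did not pass in either organ. Sult2a7 and Ugt1a5 did not pass in kidney, and Gstt4, Sult2b1 and Sult6b1 did not pass in liver. All tests below are edgeR's quasi-likelihood test on counts with Benjamini-Hochberg adjustment over all tested genes of the organ, and a gene is called at an adjusted p under 0.05. Levels by library are CPM after scaling by the trimmed mean of M-values, and changes are log2 fold changes ± standard error.

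**Figure D1:**
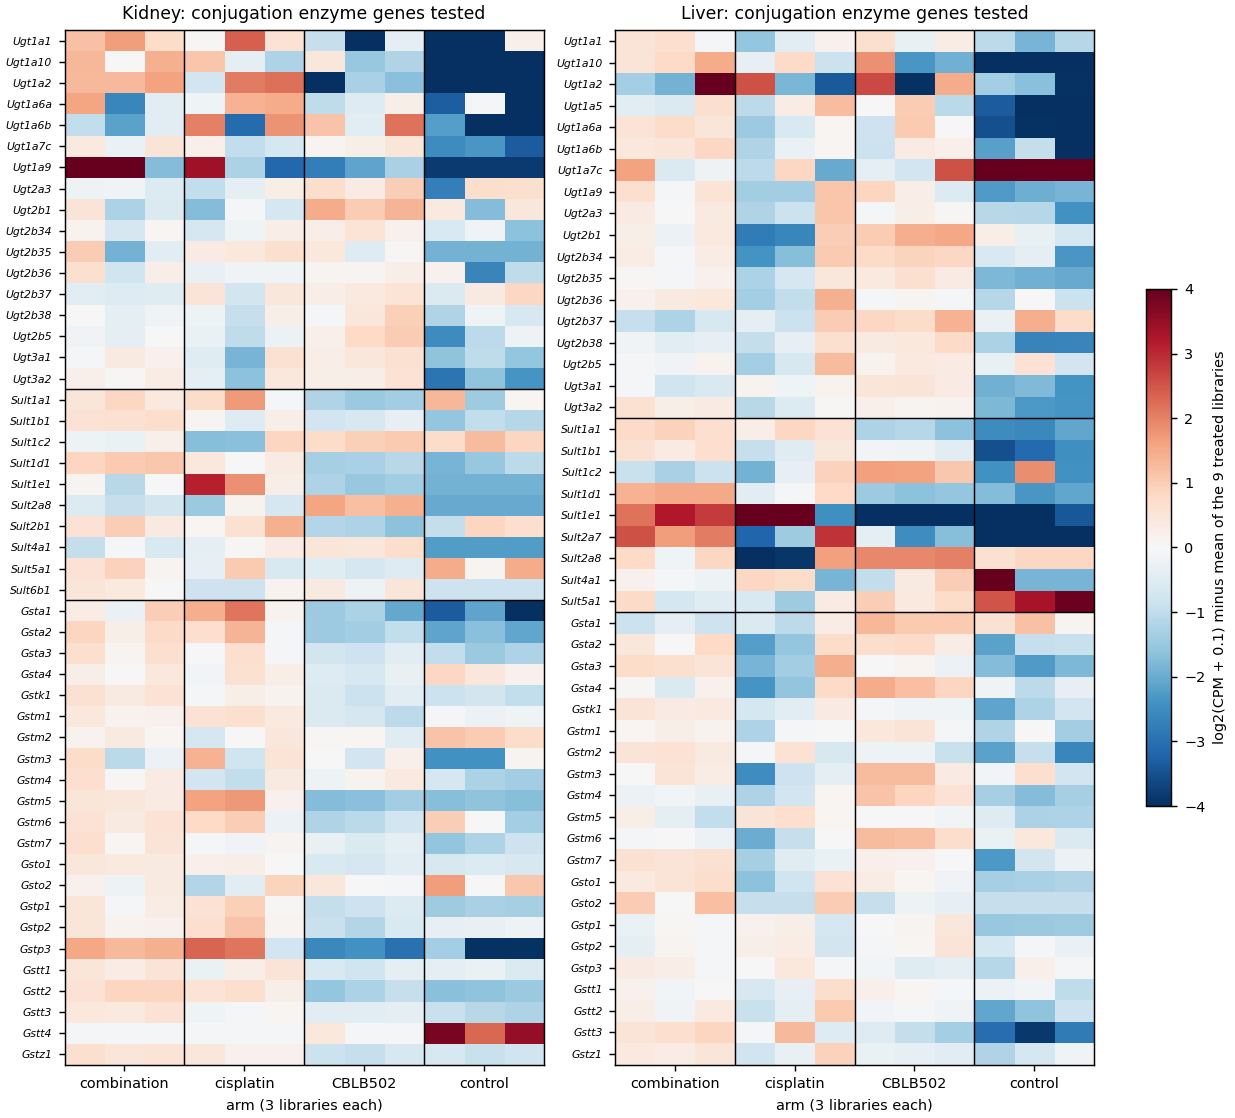
Level of every tested member (rows, grouped as Ugt, Sult and Gst) in each library (columns, 3 per arm) of kidney (left) and liver (right), as log2(CPM + 0.1) minus the mean of the 9 treated libraries of that organ, with the colour scale ending at 4 either way. In kidney, most Gst rows are higher in combination and cisplatin than in CBLB502 libraries, and in liver the third cisplatin library differs from the first and second in many rows.

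In kidney, most Gst genes were higher in both cisplatin-containing arms than in the CBLB502 arm. Of the 22 Gst genes tested, 16 rose in combination and 15 in cisplatin kidneys, and none fell. Over all members, 21 were higher and 1 lower in combination against CBLB502 kidneys, or 44.9% of the 49 tested, where 23.8% of all genes were called. In cisplatin against CBLB502 kidneys, 20 were higher and 1 lower, or 42.9%, where 28.7% of all genes were called. Over all genes, 14.9% were called higher and 8.98% lower in the combination comparison, and 18.5% higher and 10.2% lower in the cisplatin comparison. The median change of the Gst genes was 1.02 (log2) in combination and 0.89 in cisplatin kidneys, against -0.02 and -0.05 over all genes. Both comparisons share the CBLB502 libraries. A limma test on log2(FPKM + 1) gave 14 members higher and 6 lower in cisplatin against CBLB502 kidneys, where it called 15.4% of all genes higher and 27.6% lower. In combination against CBLB502 kidneys, edgeR on the 6 libraries compared alone gave 24 higher and 9 lower, where 23.9% of all genes were higher and 25.4% lower.

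Class alpha genes come first. Gsta1 (chr9:78230656-78242684), whose product conjugates electrophiles such as lipid peroxidation products, had 13.5, 9.15 and 22.0 CPM in combination kidneys, 30.6, 49.0 and 12.15 CPM in cisplatin kidneys, 3.97, 4.50 and 2.60 CPM in CBLB502 kidneys, and 1.015, 2.501 and 0 CPM in controls. All 6 libraries with cisplatin lay above all 6 without it. The change against CBLB502 was 2.01 ± 0.739 in combination kidneys, which did not pass (adjusted p = 0.0691), and 3.05 ± 0.768 in cisplatin kidneys (adjusted p = 0.0127). The cisplatin call was lost without cisplatin library 5 (adjusted p = 0.0566), without CBLB502 library 4 (0.0507) or without CBLB502 library 6 (0.0534), with changes of 2.52 to 3.10. Gsta2, its close relative on the same chromosome, had 485.8, 318.7 and 464.5 CPM in combination kidneys, 434.5, 697.1 and 256.2 CPM in cisplatin kidneys, 98.6, 102.8 and 137.3 CPM in CBLB502 kidneys, and 63.2, 84.7 and 63.8 CPM in controls. It rose by 1.91 ± 0.324 in combination (adjusted p = 0.00169) and 2.03 ± 0.325 in cisplatin kidneys (adjusted p = 0.00123) against CBLB502, and again the libraries with and without cisplatin did not overlap. Gsta3, at 114 to 192 CPM in the 6 libraries with cisplatin, rose by 1.15 ± 0.234 and 0.89 ± 0.233, and Gsta4, which detoxifies the lipid aldehyde 4-hydroxynonenal, by 0.71 ± 0.220 and 0.77 ± 0.221, in combination and in cisplatin kidneys. Gsta4 was at 25.5, 21.35 and 29.2 CPM in combination, 20.2, 33.2 and 26.0 CPM in cisplatin, 15.2, 13.9 and 17.4 CPM in CBLB502 kidneys, and 38.7, 29.7 and 24.2 CPM in controls. The controls overlapped both cisplatin-containing arms, and the CBLB502 arm was the low one (-0.99 ± 0.223 against control, adjusted p = 0.00963). This call against control was lost without CBLB502 library 5 (adjusted p = 0.05). On log2(FPKM + 1) with limma, without trimmed-mean scaling, the change was positive (1.26, adjusted p = 0.000146).

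Gstm5 (chr3:107895821-107898686), a class mu enzyme, had 249.6, 245.7 and 226.1 CPM in combination kidneys, 544.5, 598.8 and 202.8 CPM in cisplatin kidneys, 53.5, 56.7 and 67.5 CPM in CBLB502 kidneys, and 55.2, 58.2 and 54.6 CPM in controls. Cisplatin libraries 4 and 5 lay above every combination library and library 6 below them. Against CBLB502 it rose by 2.02 ± 0.314 in combination (adjusted p = 0.00104) and by 2.92 ± 0.325 in cisplatin kidneys (adjusted p = 0.00041). Gstm1, Gstm6 and Gstm7 of the same class also rose in combination kidneys (1.01 ± 0.168, 1.62 ± 0.525 and 0.86 ± 0.239), and Gstm1 and Gstm6 in cisplatin kidneys (1.30 ± 0.169 and 1.69 ± 0.526). For Gstm1, too, the CBLB502 arm lay below the controls, at 315.2, 295.7 and 228.9 CPM against 463.0, 404.6 and 421.5 CPM, while combination kidneys had 520.1 to 631.3 CPM and cisplatin kidneys 615.4 to 744.8 CPM. The Gstm1 call in CBLB502 against control was lost without a filter, CBLB502 library 5 or 6, or control library 1 or 3 (adjusted p = 0.0514 to 0.0979). On log2(FPKM + 1) with limma, without trimmed-mean scaling, that change was positive (1.73, adjusted p = 1.12e-05). Gstm2, Gstm3 and Gstm4 passed the test in neither comparison. Gstm4 had 12.1, 7.84 and 9.66 CPM in combination, 4.46, 3.82 and 9.95 CPM in cisplatin and 6.70, 8.49 and 10.1 CPM in CBLB502 kidneys, with overlapping groups.

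Class pi and theta genes followed. Gstp1, at 299.9, 204.2 and 260.4 CPM in combination, 315.8, 412.7 and 220.4 CPM in cisplatin, 110.0, 118.9 and 145.0 CPM in CBLB502 kidneys and 79.7, 85.5 and 85.3 CPM in controls, rose by 1.03 ± 0.226 and 1.34 ± 0.227 in combination and cisplatin against CBLB502 kidneys. Gstp2 of the same class rose by 1.14 ± 0.239 and 1.58 ± 0.242, at 14.7 to 22.1 CPM in CBLB502 kidneys and 26.6 to 29.0 CPM in controls. Gstp3, which shares no 50-base stretch with other genes, was near the limit of detection without cisplatin: 4.39, 3.73 and 4.06 CPM in combination, 7.59, 6.70 and 0.814 CPM in cisplatin, 0.158, 0.190 and 0.0963 CPM in CBLB502 kidneys, and 0.507, 0 and 0 CPM in controls. It changed by 4.76 ± 1.01 (adjusted p = 0.00583) and 5.07 ± 1.02 (adjusted p = 0.00409) against CBLB502. Gstt2 of class theta had 345.1, 414.1 and 412.8 CPM in combination, 336.1, 356.3 and 270.1 CPM in cisplatin, 78.5, 95.7 and 120.7 CPM in CBLB502 kidneys, and 72.1, 75.1 and 81.3 CPM in controls. The lowest library with cisplatin, at 270.1 CPM, lay above the highest without, at 120.7 CPM, and the changes were 1.99 ± 0.187 (adjusted p = 0.000133) and 1.71 ± 0.185 (adjusted p = 0.000392). Gstt1 rose in both arms (1.02 ± 0.199 and 0.80 ± 0.198), as did Gstz1, an isomerase of tyrosine breakdown (1.35 ± 0.151 and 1.07 ± 0.150), Gsto1, which reduces dehydroascorbate and mixed disulfides (0.96 ± 0.128 and 0.72 ± 0.127), and Gstk1, the mitochondrial and peroxisomal class kappa enzyme (1.12 ± 0.150 and 0.72 ± 0.149). Gstt3 rose in combination kidneys (0.88 ± 0.135) and did not pass in cisplatin kidneys, and Gsto2 and Gstt4 were under 2 CPM in every kidney library.

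**Figure D2:**
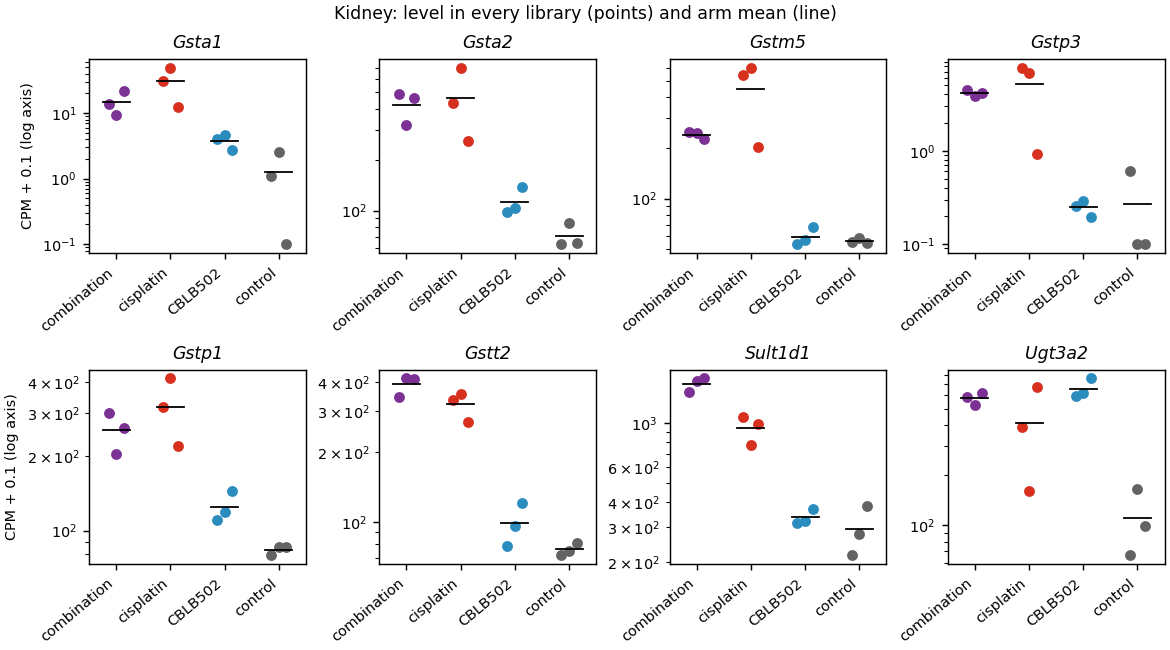
CPM + 0.1 (log axes) of 8 members in every kidney library (points) with the mean of each arm (line). For the 6 Gst genes shown, each of the 6 libraries of the combination and cisplatin arms lies above all CBLB502 libraries, while for Ugt3a2 the combination, cisplatin and CBLB502 arms overlap.

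Among the 10 sulfotransferases tested in kidney, 5 were called in each arm against CBLB502. The shares called over all genes were 23.8% in combination and 28.7% in cisplatin against CBLB502 kidneys. Sult1d1 (chr5:87554645-87569027) had 1425, 1622 and 1664 CPM in combination, 1066, 775.9 and 985.6 CPM in cisplatin, 316.5, 324.2 and 369.7 CPM in CBLB502 kidneys, and 218.4, 276 and 383.4 CPM in controls. All combination libraries lay above all cisplatin libraries, and these above all others. It rose by 2.22 ± 0.221 in combination (adjusted p = 0.000154) and 1.48 ± 0.216 in cisplatin kidneys (adjusted p = 0.000835) against CBLB502. Sult1a1 had 33.3, 42.3 and 31.4 CPM in combination, 40.01, 78.2 and 23.2 CPM in cisplatin and 10.3, 8.46 and 9.12 CPM in CBLB502 kidneys, with 60.4, 8.86 and 25.1 CPM in controls. It changed by 1.94 ± 0.568 (adjusted p = 0.0283) and 2.34 ± 0.576 (adjusted p = 0.0113) against CBLB502. The combination call was lost without any single combination or CBLB502 library (adjusted p = 0.0563 to 0.0997), and the cisplatin call without cisplatin library 5 (0.0564) or CBLB502 library 5 (0.0505). Sult2b1, which sulfates cholesterol and pregnenolone, rose by 2.25 ± 0.538 and 2.42 ± 0.541 from a low level (1.13 to 3.06 CPM with cisplatin, 0.278 to 0.415 CPM with CBLB502 alone). Its controls, at 0.507, 2.01 and 1.77 CPM, overlapped the arms with cisplatin and lay above the CBLB502 arm. Sult1b1, which acts on phenols and thyroid hormones, rose in combination kidneys (1.22 ± 0.280), and Sult1e1, the estrogen sulfotransferase, in cisplatin kidneys (5.07 ± 1.0, adjusted p = 0.00534). Sult1e1 stayed low there, at 3.11, 1.22 and 0.336 CPM in cisplatin kidneys, 0.303, 0.0712 and 0.269 CPM in combination kidneys, at most 0.0593 CPM in CBLB502 kidneys and 0 in controls. Sult2a8 fell by 2.74 ± 0.780 in combination (adjusted p = 0.0305) and 2.44 ± 0.770 in cisplatin kidneys (adjusted p = 0.0400) against CBLB502. It was at 0.0433 to 0.342 CPM with cisplatin and 0.832 to 1.10 CPM with CBLB502 alone, and the combination call was lost without any 1 of the 6 libraries compared (adjusted p = 0.0792 to 0.106). The cisplatin call was lost without any library of the combination arm, of the CBLB502 arm, or without cisplatin library 4 or 6 (0.0574 to 0.123).

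Of the 17 glucuronosyltransferases tested in kidney, 1 was called in each comparison with CBLB502, or 5.88%. Of all genes, 23.8% were called in the combination and 28.7% in the cisplatin comparison. The median change of the glucuronosyltransferases was -0.18 in combination and -0.41 in cisplatin against CBLB502 kidneys. The 1 called was Ugt1a2, with 59.3, 58.7 and 72.4 CPM in combination, 14.05, 101.0 and 110.7 CPM in cisplatin, 0.781, 9.62 and 7.46 CPM in CBLB502 kidneys, and 0, 0 and 0.312 CPM in controls. It rose by 3.41 ± 0.874 (adjusted p = 0.0151) and 3.66 ± 0.883 (adjusted p = 0.0103), but it is a shared-exon gene with the junction letters of Ugt1a5 shown above. With all Ugt1a counts summed, the change was 0.45 ± 0.218 in combination (adjusted p = 0.160) and 0.09 ± 0.217 in cisplatin kidneys (adjusted p = 0.786). The shares within the sum differed: Ugt1a7c held 55.4% to 69.2% of Ugt1a counts in combination, 33.8% to 72.4% in cisplatin, 84.2% to 89.9% in CBLB502 kidneys and 57.1% to 94.3% in controls. Its own level overlapped between treated arms, at 364.9, 235.3 and 402.0 CPM in combination, 326.2, 140.3 and 174.1 CPM in cisplatin and 303.2, 331.3 and 389.0 CPM in CBLB502 kidneys. The split of counts between Ugt1a7c, Ugt1a6a and Ugt1a6b is uncertain. Transcripts annotated to Ugt1a7c hold 100% of the 50-base stretches of Ugt1a6a and 80.7% of those of Ugt1a6b. Ugt1a8 was at 11.1 CPM in combination library 5 and at 0 in all other kidney libraries, and Ugt1a9 ranged from 0.326 to 38.8 CPM within the combination arm. Ugt3a2 (chr15:9335550-9370955) had 588.6, 526.5 and 623.4 CPM in combination, 387.8, 161.6 and 677.3 CPM in cisplatin and 594.3, 616.1 and 757.6 CPM in CBLB502 kidneys, with 66.6 to 165.9 CPM in controls. Ugt2b38 likewise overlapped, with 281.8, 220.3 and 254.0 CPM in combination, 244.4, 149.1 and 331.3 CPM in cisplatin and 269.7, 384.5 and 545.5 CPM in CBLB502 kidneys.

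**Figure D3:**
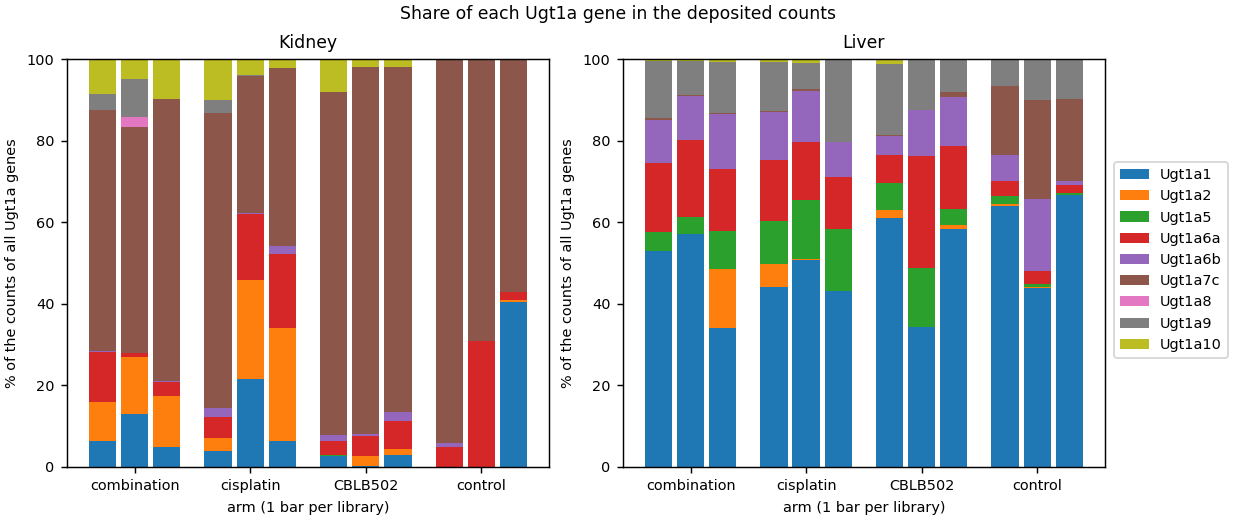
Share of each of the 9 Ugt1a genes (colours) in the counts of all Ugt1a genes, with 1 bar per library (3 per arm) in kidney (left) and liver (right). Ugt1a7c makes up 84.2% to 89.9% in CBLB502 kidneys and Ugt1a1 34.0% to 66.7% over all liver libraries. The split between genes is uncertain because they share sequence.

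Kidney cisplatin library 6 lay nearer to the CBLB502 arm than libraries 4 and 5 for several members, as the values of Gstm5, Gstp3 and Gsta1 show. Without it, 20 of the 21 members called in cisplatin against CBLB502 kidneys were still called (all but Sult2a8, adjusted p = 0.0581). Another 8 were added, among them Sult1c2 (-2.62 ± 0.207), Ugt3a1 (-1.47 ± 0.334) and Ugt3a2 (-1.26 ± 0.387), which gave 21 higher and 7 lower, where the same fit called 23.7% of all genes higher and 23.2% lower. The library was set apart because of values such as these, so the added calls are a description. Sult1c2 had 6.77 and 7.03 CPM in cisplatin libraries 4 and 5 and 41.1 CPM in library 6, against 37.7, 43.4 and 46.1 CPM in CBLB502 kidneys. Markers moved with this split: proximal tubule genes summed to 1873, 1596 and 5174 CPM in cisplatin libraries 4, 5 and 6, 3550 to 3926 CPM in combination, 5274 to 7273 CPM in CBLB502 kidneys and 1800 to 3651 CPM in controls. Of these 10 markers, 2 (Lrp2 and Slc7a13) fell and none rose in both arms against CBLB502, and none was at 0 throughout. Erythroid, podocyte and endothelial markers were also lower in both cisplatin-containing arms: 5 of 5 erythroid, 2 of 3 podocyte and 3 of 4 endothelial genes fell. The erythroid sum was 2.09 to 6.73 CPM in combination, 1.04 to 4.54 CPM in cisplatin, 164.4 to 718.1 CPM in CBLB502 kidneys and 189.6 to 1003 CPM in controls. The podocyte sum was 41.1 to 59.95 CPM in combination, 27.9 to 79.9 CPM in cisplatin, 168.4 to 198.4 CPM in CBLB502 kidneys and 69.7 to 79.8 CPM in controls. The endothelial sum was 8.93 to 22.0 CPM in combination, 6.08 to 39.8 CPM in cisplatin, 49.5 to 98.7 CPM in CBLB502 kidneys and 96.8 to 182.6 CPM in controls, and no marker of these lists was at 0 throughout. Of 4 stromal genes, 1 fell in combination and 3 in cisplatin against CBLB502 kidneys, with sums of 30.9 to 38.4 CPM in combination, 14.1 to 43.1 CPM in cisplatin, 77.2 to 107.8 CPM in CBLB502 kidneys and 321.6 to 461 CPM in controls. Of 5 lymphocyte genes, 4 were tested and 1 (Igkc) fell in each arm, with sums of 0.702 to 0.962 CPM in combination, 0.0975 to 1.31 CPM in cisplatin, 4.43 to 4.93 CPM in CBLB502 kidneys and 8.31 to 23.0 CPM in controls. Of 4 genes of thick limb and distal tubule, 2 (Pvalb and Slc12a3) fell in each arm, with sums of 933.3 to 1802 CPM in combination, 677.7 to 2200 CPM in cisplatin, 2441 to 3767 CPM in CBLB502 kidneys and 537.4 to 698.1 CPM in controls. Of 4 genes of the cholangiocyte list, 2 rose in combination (Krt19 and Krt7) and 2 in cisplatin kidneys (Krt19 and Sox9). Their sums were 171.8 to 213.0 CPM in combination, 184.7 to 212.7 CPM in cisplatin, 90.1 to 129.9 CPM in CBLB502 kidneys and 90.5 to 121.7 CPM in controls. The part of any of these lists in the Gst values was not tested.

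In liver, few members were called between treated arms when all 12 libraries were used, and sulfotransferases led those that were. In combination against CBLB502 livers, 3 were higher and 1 lower, or 8.33% of 48, where 6.74% of all genes were called (2.88% higher, 3.86% lower). In cisplatin against CBLB502 livers, 3 were higher and 3 lower, or 12.5%, where 12.5% of all genes were called (7.7% higher, 4.84% lower). The higher ones were Sult1e1, Sult1d1 and Sult1a1 in each comparison, out of 9 sulfotransferases tested, and the comparisons share the CBLB502 libraries. The shares over all members are near the background and are no result about the members as a group. Median changes over the members were 0.02 in combination and -0.38 in cisplatin against CBLB502 livers, where all genes had 0.02 and -0.06.

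Sult1e1 (chr5:87575969-87591594), which inactivates estrogens, had 38.2, 78.6 and 59.1 CPM in combination livers, 181.5, 176.4 and 1.46 CPM in cisplatin livers, 0.200, 0.174 and 0.214 CPM in CBLB502 livers, and 0, 0 and 0.704 CPM in controls. Cisplatin libraries 1 and 2 were the highest and library 3 far lower, yet all 6 libraries with cisplatin lay above all 6 without. It rose by 8.21 ± 1.46 in combination (adjusted p = 0.00716) and 9.25 ± 1.52 in cisplatin livers (adjusted p = 0.00357) against CBLB502. Under limma-voom neither passed (adjusted p = 0.162 and 0.141). Sult1d1, next to it on chromosome 5, had 393.9, 437.0 and 430.2 CPM in combination, 110.4, 144.6 and 260.4 CPM in cisplatin, 54.7, 48.2 and 51.3 CPM in CBLB502 livers, and 45.7, 30.3 and 35.6 CPM in controls. The arms did not overlap, with combination highest, then cisplatin, then CBLB502. The changes against CBLB502 were 3.03 ± 0.312 (adjusted p = 0.000441) and 1.74 ± 0.297 (adjusted p = 0.00432). Sult1a1 had 573.8, 627.6 and 533.4 CPM in combination, 402.0, 598.1 and 495.7 CPM in cisplatin, 142.3, 152.1 and 106.6 CPM in CBLB502 livers, and 58.1, 55.4 and 78.9 CPM in controls. It rose by 2.11 ± 0.241 (adjusted p = 0.000657) and 1.9 ± 0.240 (adjusted p = 0.00104), and the cisplatin and combination arms overlapped.

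The members that fell in liver were Ugt3a1 in the combination arm and 3 class mu genes in the cisplatin arm. Ugt3a1, at 19.6, 11.4 and 13.2 CPM in combination and 28.1, 29.1 and 25.5 CPM in CBLB502 livers, changed by -0.90 ± 0.229 (adjusted p = 0.0381). The call was lost without combination library 2 or 3 or any CBLB502 library (adjusted p = 0.0920 to 0.178). Gstm3 had 2.64, 8.51 and 11.8 CPM in cisplatin and 36.2, 36.3 and 19.1 CPM in CBLB502 livers, a change of -2.0 ± 0.504 (adjusted p = 0.0256). Gstm6 changed by -1.83 ± 0.422 (adjusted p = 0.0173) and Gstm4 by -1.42 ± 0.302 (adjusted p = 0.0123). All 3 class mu calls were lost without cisplatin library 2 (adjusted p = 0.0617 to 0.0807) or CBLB502 library 1 (0.0649 to 0.0926), and when only the 6 libraries compared were fitted (0.0601 to 0.0718). Gstm3 and Gstm6 were also lost without CBLB502 library 2 (0.0928 and 0.0671), and Gstm3 without cisplatin library 1 (0.0507).

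The liver counts changed when cisplatin library 3 was left out, and 3 members show how it stands apart. Sult2a8 had 197.2, 101.5 and 200.3 CPM in combination livers, 3.26, 7.50 and 351.4 CPM in cisplatin livers, 431.9, 430.0 and 463.1 CPM in CBLB502 livers, and 171.2, 201.5 and 203.0 CPM in controls. Ugt2b1, which glucuronidates steroids, had 122.2, 88.7 and 137.4 CPM in combination, 14.9, 16.8 and 207.9 CPM in cisplatin, 212.1, 284.8 and 305.0 CPM in CBLB502 livers, and 124.3, 85.1 and 64.2 CPM in controls. Gsta3 had 1254, 1179 and 1070 CPM in combination, 208.1, 282.9 and 2030 CPM in cisplatin, 754.5, 816.3 and 634.4 CPM in CBLB502 livers, and 223.2, 155.8 and 213.8 CPM in controls. In each, cisplatin libraries 1 and 2 were lower than every other treated library and library 3 was within or above the range of the other treated arms. Without library 3, members called in cisplatin against CBLB502 livers numbered 4 higher and 21 lower in place of 3 and 3, where that fit called 14.1% of all genes higher and 15.5% lower, and all 6 earlier calls were kept. Sult2a8 then changed by -6.37 ± 0.460, Ugt2b1 by -4.08 ± 0.335, Gsta4 by -3.19 ± 0.375 and Gsta3 by -1.59 ± 0.223. Library 3 was set apart because of values such as these, so these changes are a description with no test. In combination against CBLB502 livers, 7 were higher and 8 lower without library 3 (all genes, 6.27% higher and 6.78% lower), and 13 higher and 14 lower when only those 6 libraries were fitted (15.3% and 16.1%), in place of 3 and 1. Without cisplatin library 1 or library 2, that comparison had 4 higher and 3 lower, where 7% and 6% of all genes were called. Other measures split the same way: 6 pericentral hepatocyte markers summed to 736, 1148 and 4913 CPM in cisplatin libraries 1, 2 and 3, 4385 to 5791 CPM in combination, 4635 to 4859 CPM in CBLB502 livers and 581 to 780 CPM in controls. Of these 6, 1 (Oat) fell in cisplatin against CBLB502 livers, and none was at 0 throughout. Neutrophil markers summed to 23.8, 30.5 and 1.55 CPM in cisplatin libraries 1, 2 and 3, at most 0.348 CPM in combination, 0.622 to 1.42 CPM in CBLB502 livers and 3.48 to 7.95 CPM in controls. Of the 5, 2 (S100a8 and S100a9) passed the count filter and both rose in cisplatin against CBLB502 livers. Of 6 macrophage markers, 6 fell in combination and 4 in cisplatin against CBLB502 livers, with sums of 16.3 to 23.8 CPM in combination, 20.3 to 104.9 CPM in cisplatin, 151.6 to 295.3 CPM in CBLB502 livers and 107.9 to 173.9 CPM in controls. Of 5 lymphocyte markers, 4 fell in each arm, with sums of 0.174 to 0.567 CPM in combination, 0.0655 to 0.716 CPM in cisplatin, 5.73 to 8.58 CPM in CBLB502 livers and 71.2 to 78.4 CPM in controls. All 5 erythroid markers fell in both arms, with sums of 11.5 to 17.2 CPM in combination, 4.23 to 9.42 CPM in cisplatin, 173.2 to 189.6 CPM in CBLB502 livers and 141 to 605 CPM in controls. Their part in the member values was not tested.

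**Figure D4:**
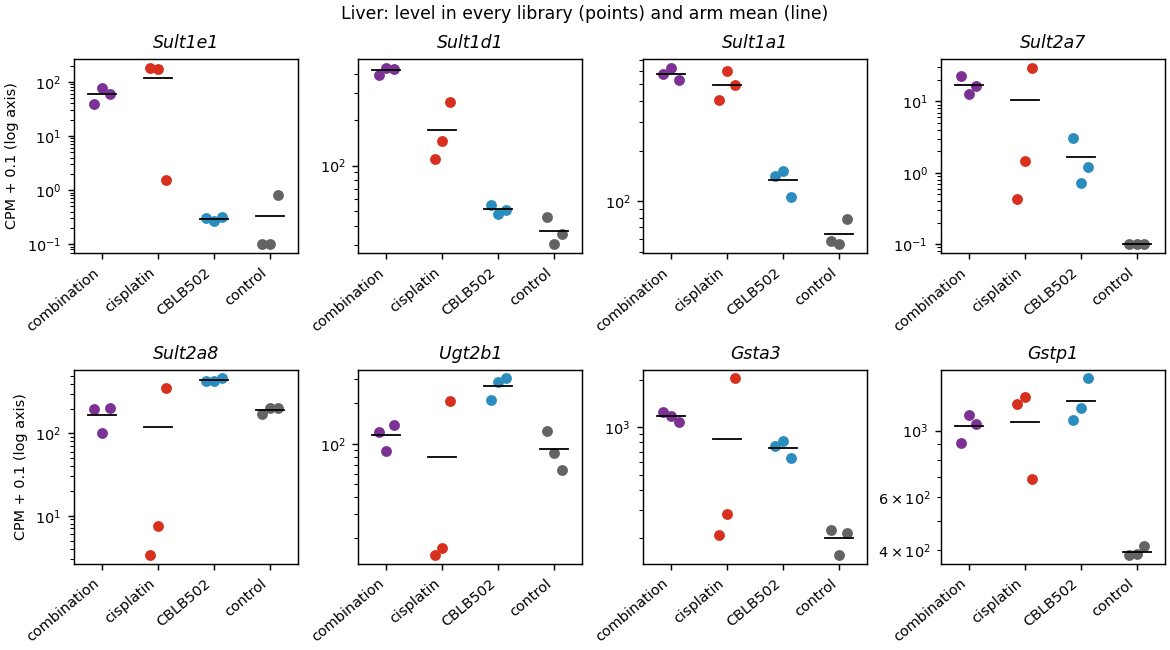
CPM + 0.1 (log axes) of 8 members in every liver library (points) with the mean of each arm (line). Sult1d1 and Sult1a1 are higher in combination and cisplatin than in CBLB502 libraries, and for Sult1e1, Sult2a7, Sult2a8, Ugt2b1 and Gsta3 the third cisplatin library lies far from the first and second.

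The comparison of combination against cisplatin asks what CBLB502 given beforehand changed in cisplatin-treated mice. In kidney no member was called by edgeR, where 0.00492% of all genes were called. At an unadjusted p under 0.05 there were 6 members (Gstt3, Gstm5, Sult1b1, Sult1e1, Sult1d1 and Gstk1), and DESeq2 called 2. Sult1d1, with the non-overlapping values given above, differed by 0.74 ± 0.213 (adjusted p = 0.240), and Gstm5 by -0.90 ± 0.305 (adjusted p = 0.272). Without cisplatin library 6, 6 members were higher and 3 lower in combination kidneys, or 9 of 49, where that fit called 22.3% of all genes (12% higher, 10.3% lower). The members' share was no larger than that background. Higher were Sult1c2 (1.63 ± 0.198), Gstm4 (1.26 ± 0.282), Ugt3a1 (1.18 ± 0.330), Sult1d1 (0.77 ± 0.230), Gstt3 and Sult6b1, and lower were Sult1e1 (-3.32 ± 0.756), Gstm5 (-1.25 ± 0.130) and Gstp2.

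In liver, Sult1d1 was the 1 member called, higher in combination by 1.29 ± 0.293 (adjusted p = 0.0375), where 3.57% of all genes were called (0.993% higher, 2.58% lower). The call was lost without any 1 library of the combination or CBLB502 arms or without cisplatin library 1 or 2 (adjusted p = 0.0746 to 0.145), and the change was 1.74 ± 0.208 without cisplatin library 3. Without control library 1, 2 members were called, where 5.78% of all genes were. Without cisplatin library 3, 23 members were higher and 1 lower in combination livers, where that fit called 23.1% of all genes (12.5% higher, 10.6% lower). Among the higher were Sult2a8 (4.96 ± 0.428), Sult2a7 (4.34 ± 0.830), Ugt2b1 (2.89 ± 0.314), Gsta2 (2.36 ± 0.392) and Gsta3 (2.26 ± 0.231), and the lower one was Sult1e1 (-1.60 ± 0.418), again as a description. Sult2a7, of the subfamily that sulfates bile acids and steroids, had 22.9, 12.5 and 16.2 CPM in combination, 0.337, 1.38 and 29.4 CPM in cisplatin, 2.97, 0.613 and 1.12 CPM in CBLB502 livers, and 0 in all controls.

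The organ difference of a change was tested directly. The labels do not say whether liver and kidney libraries came from the same mice, and the fit treats them as independent. The log2 change in cisplatin against CBLB502 was more positive in kidney than in liver for 8 members, all Gst genes, or 15.7% of the 51 tested in the fit of all 24 libraries, and more negative for none. Among all genes 2.08% were called either way and 1.25% higher. The difference was 4.59 ± 1.01 for Gsta1 (adjusted p = 0.0228), 4.49 ± 0.907 for Gstp3 (adjusted p = 0.0134), 3.39 ± 0.650 for Gstm6 (adjusted p = 0.00900), 2.94 ± 0.758 for Gsta2 (adjusted p = 0.0474) and 2.29 ± 0.443 for Gstm5 (adjusted p = 0.00934). The median difference was 1.17 over the 22 Gst genes and 0.00 over all genes. For Gstm1, Gstp2 and Gstp1 it was 1.82 ± 0.464, 1.64 ± 0.394 and 1.45 ± 0.351. All 8 rose in kidney. In liver Gstm6 fell (-1.83 ± 0.422), and the other 7 did not pass. Apart from Gstp3, their liver changes were -1.68 ± 0.568 for Gsta1, -1.04 ± 0.632 for Gsta2, -0.65 ± 0.403 for Gstm1, -0.23 ± 0.255 for Gstp1, -0.19 ± 0.298 for Gstp2 and 0.50 ± 0.333 for Gstm5. Gstp3 had 10.3, 13.7 and 9.65 CPM in cisplatin and 9.5, 7.29 and 7.97 CPM in CBLB502 livers, groups that did not overlap by a narrow margin, and its liver change of 0.44 ± 0.293 did not pass (adjusted p = 0.360). Its kidney levels, given above, differed far more. Gsta1 was low in liver, at 0.337, 0.218 and 0.707 CPM in cisplatin and 1.555, 1.253 and 1.263 CPM in CBLB502 libraries. Gstm6 was low in kidney, with means of 1.58 FPKM in cisplatin and 0.486 FPKM in CBLB502 libraries. Counts of Gsta1, Gsta2, Gstp1 and Gstp2 are also uncertain because of shared sequence. Leaving out liver cisplatin library 3 gave 19 higher and 2 lower with all 8 kept, where 5.81% of all genes were higher and 2.98% lower. Leaving out kidney cisplatin library 6 gave 8 higher with the same 8 genes, where 3.73% of all genes were higher and 3.22% lower. The count fell to between 3 and 5 without kidney cisplatin library 4 or 5, kidney CBLB502 library 4, 5 or 6, liver cisplatin library 1 or 2, or any liver CBLB502 library, where 0.623% to 1.09% of all genes were called. The change in combination against cisplatin passed the test of a difference between organs for no member, where 0.964% of all genes were called (1 member at an unadjusted p under 0.05, none by DESeq2). Without liver cisplatin library 3 it was more negative in kidney for 7 members (7.16% of all genes called), and without kidney cisplatin library 6 it was more positive for Ugt3a1 (3.25% called).

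**Figure D5:**
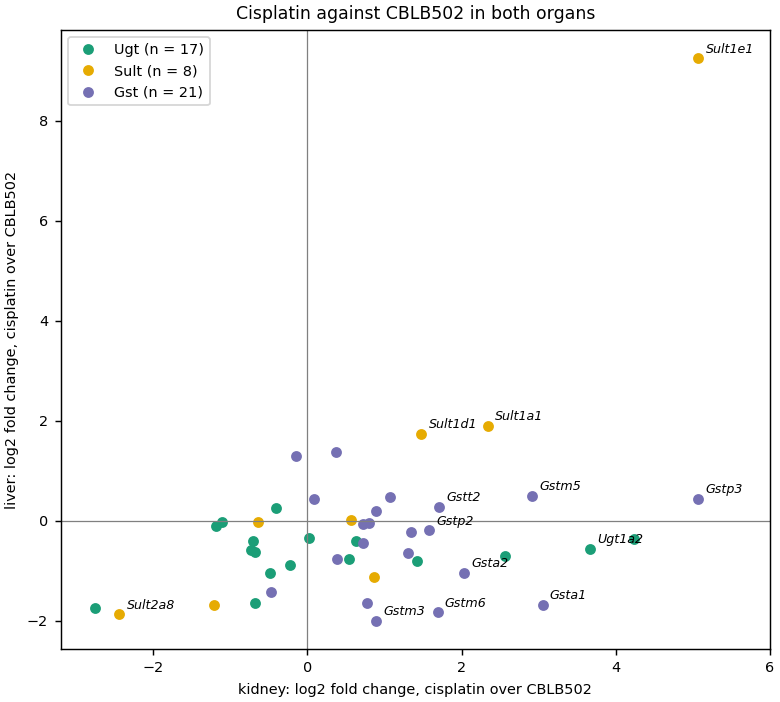
Log2 fold change of cisplatin over CBLB502 in kidney (x axis) and liver (y axis) for the 46 members tested in both organs, coloured by family. Gst points lie mostly right of 0 on the kidney axis and on both sides of 0 on the liver axis, and Sult1d1, Sult1a1 and Sult1e1 are positive on both.

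The organs also differed in level. In CBLB502 libraries, 9 members were higher and 31 lower in kidney than in liver, or 78.4% of 51, where 29.9% of all genes were called. In control libraries, 12 were higher and 26 lower, or 74.5%, where 33.9% of all genes were called. With CPM scaled over all 24 libraries, Ugt1a7c averaged 255.8 CPM in CBLB502 kidneys and 2.99 CPM in CBLB502 livers, a difference of 6.42 ± 0.980. In controls it averaged 30.01 CPM in kidney and 40.3 CPM in liver (-0.43 ± 0.782, adjusted p = 0.721), and the Ugt1a sum was lower in kidney than in liver in both arms (-1.16 ± 0.302 with CBLB502 and -2.27 ± 0.313 in controls). Sult1c2 (4.03 ± 0.850), Ugt2b37 (3.18 ± 0.490), Gstm5 (2.82 ± 0.331), Ugt2b38 (2.62 ± 0.432), Gsta2 (2.39 ± 0.552), Sult1d1 (1.80 ± 0.271), Ugt3a1 (1.55 ± 0.388) and Ugt3a2 (1.40 ± 0.394) were the others higher in kidney. Ugt1a5, Ugt2b36, Sult2a8, Ugt2b35 and Ugt2b1 were at most 0.729 CPM in kidney and at least 56.3 CPM in liver, with differences of -9.42 or lower. Gstp1, at 93.4 CPM in CBLB502 kidneys and 1770 CPM in CBLB502 livers, differed by -4.24 ± 0.282.

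Comparisons with control are given with the composition of the control libraries in view. In kidney, 25 members were higher and 2 lower in combination (36.5% of all genes called, 21.5% higher and 15% lower), 26 and 2 in cisplatin (39.3%, 24.1% and 15.2%), and 13 and 6 in CBLB502 kidneys (19.2%, 11.4% and 7.77%). In liver the counts were 25 and 4 in combination (40.2% of all genes called, 23.8% higher and 16.4% lower), 22 and 2 in cisplatin (43.1%, 25.6% and 17.5%), and 17 and 2 in CBLB502 livers (27.8%, 18.3% and 9.48%). Medians over all genes moved with scaling in the liver comparisons. They were 0.14 in combination and in CBLB502 with the trimmed mean, and -0.16 and -0.10 with median-of-ratios scaling. The members' medians were 1.59, 1.01 and 1.35 in combination, cisplatin and CBLB502 livers. The sum of the 8 hepatocyte markers was also higher in treated livers (47050 to 83380 CPM) than in controls (13700 to 27450 CPM). Its part in the members' medians was not tested. Without liver cisplatin library 3, cisplatin against control livers had 17 members higher and 9 lower in place of 22 and 2 (26.1% of all genes higher, 20.6% lower). Of the 24 calls, 19 were kept and Gsta3, Gstk1, Gstm4, Ugt1a9 and Ugt2a3 were lost, and the members' median was 0.47 in place of 1.01. The summed Ugt1a counts were higher than control in all treated arms, by 3.16 ± 0.236, 2.80 ± 0.233 and 2.71 ± 0.232 in combination, cisplatin and CBLB502 kidneys and by 2.02 ± 0.353, 1.23 ± 0.345 and 1.77 ± 0.350 in the same arms of liver (adjusted p at most 0.0133). The Ugt1a sum was 617.7, 425.0 and 580.7 CPM in combination, 450.7, 415.1 and 400.6 CPM in cisplatin, 360.1, 368.6 and 460.5 CPM in CBLB502 kidneys and 51.8, 81.1 and 49.2 CPM in controls. Ugt1a10 had 52.6, 21.4 and 56.4 CPM in combination, 45.2, 16.2 and 8.93 CPM in cisplatin, 29.1, 7.32 and 9.06 CPM in CBLB502 kidneys and 0 counts in all controls. Against 3 counts over the control group this is at least 804-fold higher in combination, 433-fold in cisplatin and 280-fold in CBLB502 kidneys, though as a shared-exon gene its counts are uncertain. The edgeR calls (adjusted p = 0.000218, 0.000393 and 0.00152) were lost under limma-voom (0.0617, 0.0861 and 0.164). By the same bound Sult2a7 was at least 188-fold higher in combination livers, a call (adjusted p = 0.0116) that was also lost under limma-voom (0.150).

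Some members ran the other way against control. Gstm2 was at 32.0, 36.9 and 30.8 CPM in combination, 17.7, 29.2 and 39.6 CPM in cisplatin, 30.1, 30.7 and 20.9 CPM in CBLB502 kidneys, and 64.1, 58.5 and 48.6 CPM in controls, with changes of -0.78 ± 0.259, -0.98 ± 0.260 and -1.07 ± 0.260. The combination call was lost under limma-voom (adjusted p = 0.0545), without any combination library or without control library 1 or 2 (0.0591 to 0.108). The CBLB502 call was lost without CBLB502 library 6 (0.0664) or control library 1 (0.0540). On log2(FPKM + 1) with limma, without this scaling, those changes were positive (1.18, 0.86 and 1.20). Sult5a1, a member of little-studied function, was at 6.80, 2.39 and 2.78 CPM in combination, 2.56, 1.40 and 5.01 CPM in cisplatin, 7.81, 5.23 and 6.68 CPM in CBLB502 livers, and 23.0, 39.5 and 60.9 CPM in controls, with changes of -3.36 ± 0.554, -3.78 ± 0.565 and -2.65 ± 0.537. On log2(FPKM + 1) with limma none of the 3 passed, at -0.37 (adjusted p = 0.277), -0.68 (0.0613) and 0.31 (0.355), so the CBLB502 change turned positive. In liver, Ugt1a7c was also highest in controls, at 25.4, 31.2 and 27.6 CPM against 0.131 to 5.26 CPM in treated livers. Without CBLB502 library 5 or 6 or control library 1, members called in CBLB502 against control kidneys numbered 10, 8 and 12 in place of 19 (10.8%, 12.1% and 12.9% of all genes called). Without liver cisplatin library 3 those called in CBLB502 against control livers numbered 33 in place of 19 (34.8% of all genes called).

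The interaction, taken as combination minus CBLB502, minus cisplatin plus control, asks whether the 2 agents add on the log scale. In liver 2 members were above and 11 below 0 (21.7% of all genes called, 7.14% above and 14.5% below), with Ugt3a1 at -2.96 ± 0.335 (adjusted p = 0.00027) and Gstp1 at -1.72 ± 0.364 (adjusted p = 0.00660). In kidney none was above and 6 were below 0 (8.01% of all genes called, 2.6% above and 5.41% below), among them Ugt1a7c at -2.30 ± 0.480 (adjusted p = 0.0162) and none a Gst gene. Every one of these uses the control libraries, and without kidney cisplatin library 6 the kidney counts were 3 above and 12 below (11% and 14.2% of all genes).

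The genes that feed and surround these enzymes were counted from lists. Over all genes in combination and cisplatin against CBLB502 kidneys, medians were -0.02 and -0.05 and the shares called 23.8% and 28.7%. Lists whose share is near these give no result about the list. A list of 9 target genes covered NRF2, nuclear receptors and the aryl hydrocarbon receptor (Cyp1a1 and Cyp1a2). Of these, 3 were higher in combination (Nqo1, Cyp4a14, Cyp2b10) and 6 in cisplatin against CBLB502 kidneys (also Hmox1, Srxn1 and Txnrd1), and none was lower, with medians of 0.93 and 2.06. Nqo1, a quinone reductase, had 215.9, 123.8 and 168.5 CPM in combination, 213.5, 214.9 and 84.3 CPM in cisplatin and 49.7, 41.0 and 40.1 CPM in CBLB502 kidneys, with changes of 1.96 ± 0.324 and 1.97 ± 0.325. Srxn1, a sulfiredoxin, had 118.8, 78.7 and 105.6 CPM in combination, 470.5, 481.7 and 59.3 CPM in cisplatin and 35.0, 32.2 and 39.4 CPM in CBLB502 kidneys, so cisplatin library 6 was again the lowest of its arm. Of 11 genes of glutathione supply and turnover, 3 were higher and 1 lower in combination and 4 and 1 in cisplatin kidneys, with medians of 0.13 and 0.42. Gss, the glutathione synthetase, rose by 0.82 ± 0.156 and 0.78 ± 0.156. Gclc, the catalytic subunit of the rate-limiting enzyme of glutathione synthesis, rose in cisplatin kidneys (1.9 ± 0.552, adjusted p = 0.0244), at 1402, 681.6 and 141.9 CPM against 201.1, 187.9 and 206.9 CPM in CBLB502 kidneys, with library 6 below the CBLB502 range. Of 8 other glutathione transferases and related genes outside the member rule, 3 were higher and 1 lower in combination and 4 and 1 in cisplatin kidneys, among them Mgst1 (2.0 ± 0.611 and 2.35 ± 0.619).

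For sulfation, 8 genes of PAPS supply and sulfate transport were tested. In kidney, 2 were higher and 1 lower in combination, and 3 higher and 3 lower in cisplatin against CBLB502 kidneys, with medians of -0.17 and -0.43. Slc13a1, the sodium-sulfate cotransporter of the proximal tubule, rose by 2.03 ± 0.354 and 1.94 ± 0.353, while Papss1, which makes PAPS, fell by 1.01 in combination and by 1.23 in cisplatin kidneys. In liver Papss1 was lower as well, at 1.24, 0.733 and 0.897 CPM in combination, 0.932, 1.17 and 0.629 CPM in cisplatin and 5.56, 5.46 and 7.10 CPM in CBLB502 livers (-2.66 ± 0.378 and -2.73 ± 0.380). For glucuronidation, 4 genes of UDP-glucuronic acid supply gave no call in liver. In kidney, Ugp2, which makes UDP-glucose, rose in both arms (0.53 ± 0.135 and 0.54 ± 0.135), and Slc35d1 in cisplatin kidneys. Of 14 other phase II enzymes, 6 were higher and none lower in combination and 6 and 1 in cisplatin kidneys, with Ephx1, the microsomal epoxide hydrolase, at 2.29 ± 0.329 and 2.65 ± 0.334. In liver, Ephx1 and Nnmt, a nicotinamide methyltransferase, rose in both arms. Of 7 efflux transporters of conjugates, Abcc4 was lower in both arms of kidney and Abcc6 in cisplatin kidneys, and none was called in liver. Among 18 regulators (17 tested in kidney), 4 were higher and none lower in combination (23.5%) and 4 and 3 in cisplatin kidneys (41.2%), the first near the share over all genes. Nfe2l2, which encodes NRF2, was higher in cisplatin (1.91 ± 0.368) and did not pass in combination kidneys (0.95 ± 0.359, adjusted p = 0.0765).

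Members with the most similar patterns were found by Pearson's r of log2 CPM over the 12 libraries of an organ, as a description with no test. The libraries share arm and composition, so r over the 9 treated libraries is given too. In kidney, Gstm5 was most like Gstp1 (0.95 over 12, 0.96 over 9), Gstt2 most like Gsto1 (0.98 and 0.98), and Sult1d1 most like Gstt2 (0.96 and 0.95). In liver, Sult2a8 was most like Ugt2b1 (0.95 and 0.99), and Sult1d1 most like Sult1a1 (0.92 and 0.90). For Gstm5 in liver, the 3 nearest members had r of 0.67 to 0.76 over 12 libraries and -0.19 to 0.44 over 9.

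Promoters were searched for the cores of elements bound by NRF2 and by the aryl hydrocarbon receptor. RefSeq promoter windows of 300 bases (GRCm38.p6) were matched for 50 of the 57 members and searched on both strands. For the antioxidant response element, only the core form TGACNNNGC was searched, and variants of it were not counted. This form was in the windows of 3 of the 50 members (6%), Gsta3, Gstm5 and Gstm7, against 12.4% of all 32851 promoter windows. The xenobiotic response element core, GCGTG, was in 11 of 50 (22%), among them Gsta1, Gsta2, Gstm1, Gstp1 and Sult1d1, against 32.4% of all windows. In Gstm5 the matches of these cores overlap. The stretch before the Gsta3 start is shown with the antioxidant core in capitals, because Gsta3 is the 1 of these 3 whose stretch overlaps no annotated exon (chr1:21240435-21240584, plus strand, 150 bases).
Gsta3: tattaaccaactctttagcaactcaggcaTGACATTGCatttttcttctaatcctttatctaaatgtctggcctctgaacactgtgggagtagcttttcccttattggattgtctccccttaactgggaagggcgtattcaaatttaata
A match is a description of letters in this window and not of a factor's binding, and Gsta1, Gsta2, Gstp1 and Gstp3, described above for kidney, had no antioxidant core in their windows.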

How the data were processed

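RNA of 24 libraries (2 organs, 4 arms, 3 libraries each) was analysed from raw gene counts and FPKM values, both deposited by the authors in 1 table. Read trimming with cutadapt 1.9 and quality control with FastQC are listed in the submitters' processing notes. Aligner, counter, strand setting and build are not given in the sources used here. Coordinates matched GENCODE vM21 (GRCm38). Columns of treated kidneys carry the numbers 4 to 6 and could be tied to an arm but not to a single labelled sample. Their 9 FPKM columns were not used, and FPKM for the log2(FPKM + 1) test was there computed from counts, totals and exon length on the deposited scale. Levels between genes are TMM-scaled CPM per kilobase of GENCODE exons. Totals were 52.9 M to 77.1 M counts per kidney library and 40.6 M to 77.5 M per liver library (M, 1000000). Counts passing filterByExpr were tested with edgeR 4.0.16 (R 4.3.3, TMM scaling, quasi-likelihood test, Benjamini-Hochberg adjustment, threshold 0.05), with 12 libraries of an organ in 1 fit and all 24 for organ differences, and the code was tested on simulated data. Alternatives were median-of-ratios scaling, DESeq2 1.42.0 on counts, limma-voom (limma 3.58.1), no filter, no mitochondrial counts, summed Ugt1a counts, limma on log2(FPKM + 1), only the arms compared, a robust fit (interactions only), the replicate number as a block in liver and, chosen after seeing the data, among treated kidneys, and leaving out each library. A group at 0 is taken as 3 counts over the group for a bound.

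The member rule uses no values, but these families and lists were picked with earlier results of these data known. The rule for named genes takes the 3 members of each family with the highest FPKM in an organ, the largest non-overlapping called changes with at least 5 FPKM, and 16 listed genes. Other members named in counts were chosen after their values were seen. Replicate numbers showed no clear pairing of the liver libraries. Deviations correlated over 0.1 in 5 of 18 same-number pairs (range -0.169 to 0.176) and 7 of 36 other pairs (-0.191 to 0.187). Column numbers did not pair the treated kidneys either, where 0 of 9 same-number pairs did (range -0.133 to 0.0705).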

Additional observations from a re-analysis of the deposited data

Results flagged for a closer look

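For 8 Gst genes, the change in cisplatin against CBLB502 differed between kidney and liver in the fit of all 24 libraries (edgeR's quasi-likelihood test, Benjamini-Hochberg adjusted), with the kidney change the more positive in each. These 8 were 15.7% of the 51 members tested, where 2.08% of all genes were called either way and 1.25% higher. Leaving out 1 library gave 3 to 21 members called. In liver Gstm6 fell and the other 7 did not pass. Gsta1 was at most 1.555 CPM in the liver libraries compared, and Gstm6 averaged at most 1.58 FPKM in the kidney arms compared. Gsta1, Gsta2, Gstp1 and Gstp2 share 62.3% to 89.7% of their 50-base stretches with other genes, and Gstm5 and Gstp3 share 0%. The log2 differences were 4.59 for Gsta1, 4.49 for Gstp3, 3.39 for Gstm6, 2.94 for Gsta2, 2.29 for Gstm5, 1.82 for Gstm1, 1.64 for Gstp2 and 1.45 for Gstp1.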

How the results depend on the processing

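Members called in combination against cisplatin livers (1) numbered 3 under DESeq2, 3 under limma-voom, 6 on log2(FPKM + 1), and 0 without a filter, with only the arms compared or with the replicate block. In combination against CBLB502 livers (4) they numbered 7 under median-of-ratios scaling (3 higher, 4 lower), 10 under DESeq2, 8 under limma-voom, 9 on log2(FPKM + 1) and 27 with only the arms compared. In cisplatin against CBLB502 livers (6) they numbered 10 under limma-voom, 23 on log2(FPKM + 1) and 3 with only the arms compared. Limma-voom gave 15 in cisplatin against control livers (24), 7 for the liver interaction (13) and 12 in CBLB502 against control kidneys (19). On log2(FPKM + 1) there were 39 in CBLB502 against control livers (19), 37 for the liver interaction, 33 in CBLB502 against control kidneys and 27 for the kidney interaction (6). The kidney interaction had 11 under DESeq2 and 3 with Ugt1a summed, and combination against cisplatin kidneys had 2 under DESeq2 (0). The causes were not tested.

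Leaving out 1 library gave these ranges. In liver they were 0 to 24 in combination against cisplatin, 3 to 15 in combination and 3 to 25 in cisplatin against CBLB502, 13 to 33 in CBLB502 against control and 9 to 16 for the interaction. In kidney they were 0 to 9 in combination against cisplatin, 17 to 26 and 15 to 28 in combination and cisplatin against CBLB502, 8 to 24 in CBLB502 against control and 4 to 15 for the interaction. For the organ difference they were 0 to 7 in combination against cisplatin and 3 to 21 in cisplatin against CBLB502. The totals of the other 6 counts stayed within 1.5 times, but cisplatin against control livers split into 17 higher and 9 lower without cisplatin library 3, in place of 22 and 2.

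Among 108 results of single named members, 61 were unchanged under all other settings. The remaining 47 lost their call or changed sign under at least 1 of them. Limma-voom alone lost 25 calls. When single libraries were left out in turn, 23 of the 108 lost their call at least 1 time. Of the 108 results, 8 changed sign, all against control on log2(FPKM + 1) without TMM scaling. They were Gsta4 (1.26) and Gstm1 (1.73) in CBLB502 kidneys, Gstm2 in combination (1.18), cisplatin (0.86) and CBLB502 kidneys (1.20), Gsta1 (0.27) and Ugt2b37 (0.31) in combination livers and Sult5a1 (0.31) in CBLB502 livers. No result of these 108 changed its call under median-of-ratios scaling or without mitochondrial counts. The replicate block in liver gave 4 and 6 calls in combination and cisplatin against CBLB502, 28, 20 and 22 in combination, cisplatin and CBLB502 against control, and 11 for the interaction, where 4, 6, 29, 24, 19 and 13 were called without it. The labels do not say that libraries of the same number are paired. For the 9 treated kidneys, a block by column number, chosen after seeing the data, gave 0, 24 and 20 calls in combination against cisplatin, combination against CBLB502 and cisplatin against CBLB502, where the same libraries gave 0, 25 and 22 without it, and Sult2a8 lost its cisplatin call (adjusted p = 0.0537). No paired analysis with kidney controls was possible because their columns carry other numbers. The 2.82 M to 4.65 M other counts of liver controls limit what is detectable there.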
